A study of Mustela putorius furo and Mus musculus with 4 samples.

Results

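The 48 genes described here act in G2 and mitosis, from the kinase that starts mitosis to the proteins that split the cell. They were taken as a list of symbols and not by a threshold on their values, but earlier results of these data were known when the list was drawn up. All 48 were among the 17170 genes of the mouse table. The ferret table of 22008 genes held 47 of them, in upper case, and had no row for *HJURP*. In late embryonic mouse cortex lacking *Smo*, 47 of the 48 members were lower than in control in radial glia-like cells, beside 6655 of 13264 genes. All 48 were lower in intermediate progenitors of pyramidal neurons, beside 5388 of 12156 genes. There 46 were at least 2-fold lower, beside 5.07% of all genes. In the basal multipotent intermediate progenitors 45 members were lower, beside 5880 of 11153 genes, and none by 2-fold (4.99% of all genes). In microglia-like cells, which do not descend from cortical radial glia, 24 members were at least 2-fold lower, beside 8.94% of all genes. Each genotype was 1 library, so a genotype cannot be told apart from an embryo or a preparation. The exception in radial glia-like cells was *Psrc1*, which in cells outside division was higher without *Smo*. In a split made after its values were seen, it was detected more often in cells that held *Cdkn1a* transcripts, in either library. The library without *Smo* had more such cells.

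The study asked how BMP7 and Sonic Hedgehog signalling set the balance of neurogenesis and gliogenesis in the cortex, and single-cell RNA sequencing was used to compare cortex with and without SMO, the membrane protein through which Hedgehog signals enter the cell. The control mouse library came from wild type CD1 cortex at E18, which the study's text calls *Smo* F/F littermates. The Smo-cKO library came from CD1 cortex at E18 that was *hGFAP-Cre*;*Smo* F/F, in which Cre driven by the human GFAP promoter deletes *Smo* in cortical radial glia and so in the cells they generate. In both mice the ventricle received a FlashTag dye at E17 and the dyed cells were sorted, so each library is enriched for cells that touched the ventricle at injection and for their offspring. The ferret cells came from wild type cortex at E39, unsorted and without dye, and a single embryo was the source. They carry 2 barcode suffixes, called set 1 and set 2 here, which could not be tied to the 2 labelled ferret samples.

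A dividing cell copies its DNA in S phase and then, in G2, accumulates the cyclins that activate the kinase CDK1. Mitosis follows, in which condensed chromosomes attach through their kinetochores to the spindle, the anaphase-promoting complex (APC/C) marks cyclin B and securin for destruction, and the sister chromatids part before cytokinesis separates the daughter cells. Most of these transcripts are made late in the cycle and removed on exit from mitosis, so in developing cortex they mark the progenitors that line and overlie the ventricle, and they are low in neurons. Radial glia (RG) are the stem cells of the cortex. PyN-IPCs are the intermediate progenitors that give rise to pyramidal neurons (PyNs), and bMIPCs are intermediate progenitors that give rise to glia and to olfactory bulb interneurons.

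After the study's limits on genes and mitochondrial transcripts, 10498 control and 7209 Smo-cKO mouse cells and 10185 and 13052 ferret cells of sets 1 and 2 were kept. The median cell held 4033.5 unique molecular identifiers (UMIs, 1 for each captured transcript) in control, 4836 in Smo-cKO, and 2556 and 3563 in the ferret sets. Which mouse barcode suffix is which genotype was set from the number of cells per suffix, as stated with the published data, and every mouse direction here would reverse if that were wrong. Among RG-like cells, *Smo* itself was detected in 148 of 1977 (7.49%, exact 95% interval 6.36 to 8.74) in control and 2 of 1446 (0.138%, 0.0168 to 0.499) in Smo-cKO. Libraries shared 28 cell barcodes in mouse and 38 in ferret. Each genotype is 1 library, so no test between genotypes was possible and a genotype cannot be told apart from an embryo or a preparation. All intervals below cover counting error only.

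Cells were placed in classes by UMIs of lineage markers, none of which is a member. RG-like cells held at least 5 of 9 RG markers such as *Slc1a3*, *Fabp7* and *Hes5*, and no signature of another class. PyN-IPC-like cells held *Eomes* or *Neurog2* and at least 3 UMIs of the IPC markers, and bMIPC-like cells held at least 2 of the bMIPC markers such as *Egfr*, *Olig1* and *Olig2*. The control library gave 1977 RG-like, 1476 PyN-IPC-like and 512 bMIPC-like cells, and the Smo-cKO library 1446, 608 and 144. Of 3423 mouse RG-like cells, 281 sat exactly at the marker minimum. Smo-cKO cells were deeper in each of the 3 progenitor classes, with a median of 7179 UMIs against 4757 in RG-like cells, 5796 against 4158 in PyN-IPC-like cells and 11015 against 6239 in bMIPC-like cells. Levels are therefore given as CPM, in which UMIs were summed over the cells of a class and library and scaled to a common total of 1000000. They were not divided by transcript length, so levels of different genes are counts of captured molecules only.

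*Cks1b* and *Cks2* are close relatives, and their coding sequences are shown because they behaved differently along the cycle. They encode the small subunits that dock cyclin-dependent kinases to their substrates. *Cks1b* lies on mouse chromosome 3 from 89415472 to 89418383 on the minus strand and *Cks2* on chromosome 13 from 51645232 to 51650660 on the plus strand (GRCm38, GENCODE annotation). Their coding sequences are both 237 bases long without the stop codon and match at 73.4% of positions. Capitals mark the 63 positions at which they differ.
Cks1b: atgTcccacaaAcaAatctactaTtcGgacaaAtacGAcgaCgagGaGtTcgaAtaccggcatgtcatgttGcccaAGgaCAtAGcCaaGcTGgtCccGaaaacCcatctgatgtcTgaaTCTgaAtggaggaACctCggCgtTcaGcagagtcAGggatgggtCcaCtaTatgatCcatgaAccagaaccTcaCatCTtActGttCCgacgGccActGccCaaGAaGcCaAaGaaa
Cks2: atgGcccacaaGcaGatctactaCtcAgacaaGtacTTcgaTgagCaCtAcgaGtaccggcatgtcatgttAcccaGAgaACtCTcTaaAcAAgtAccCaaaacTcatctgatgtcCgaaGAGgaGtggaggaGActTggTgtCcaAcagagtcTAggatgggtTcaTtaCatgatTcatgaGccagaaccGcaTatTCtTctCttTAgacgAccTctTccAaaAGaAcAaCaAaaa
The longest run shared by their transcripts was 17 bases, shorter than a sequencing read. *Cks1b* and its retrogene-like relative *Cks1brt* share a run of 64 bases, but *Cks1brt* held 9 UMIs in control and 0 in Smo-cKO against 9063 and 4836 for *Cks1b*.

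Radial glia-like cells held the members at 10150 CPM in all in control and at 6791 CPM in Smo-cKO. By gene, 47 of 48 were lower in Smo-cKO, each with an interval of the ratio below 1, and the median log2 ratio was -0.68 against -0.00 over the 13264 genes with at least 10 UMIs. Of those genes 6655 were lower, and how many had an interval below 1 was not counted. Only 2 members were at least 2-fold lower, beside 2.99% of all genes, so nearly all members were lower by less than 2-fold. Without the 5% of cells of each library with the most UMIs 17 members were past 2-fold and the median was -0.94. That cut was not set within the class, and the share of all genes past 2-fold was not counted with it. Among the cyclin and CDK group, *Cdk1*, the kinase that drives entry into mitosis, stood at 230 CPM in control and 173 CPM in Smo-cKO, a ratio of 0.752 (0.707 to 0.799). *Ccnb1*, its cyclin partner at that step, stood at 133 and 103 CPM and had the third smallest difference of the members (log2 -0.37). *Cks2* stood at 467 and 273 CPM (ratio 0.583, 0.557 to 0.611) and *Cks1b* at 252 and 190 CPM (0.753, 0.710 to 0.798). The intervals of the CKS genes did not overlap, and *Cks2* was the lower of the pair relative to control.

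The mitotic kinases were also lower. *Plk1*, which acts in spindle assembly and in mitotic entry, stood at 63.8 CPM in control and 37.6 CPM in Smo-cKO (ratio 0.590, 0.520 to 0.668). *Aurka*, the centrosomal Aurora kinase, stood at 56.0 and 34.3 CPM, and *Aurkb*, the kinase of the chromosomal passenger complex, at 64.2 and 47.2 CPM. *Nek2*, a kinase of centrosome separation, had the third largest difference of the members (21.6 and 11.6 CPM, log2 -0.89). The other passenger proteins, *Birc5* (survivin) and *Cdca8* (borealin), had nearly the same ratio, at 235 and 144 CPM and at 251 and 154 CPM.

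Of the centromere and kinetochore genes, *Cenpf* stood at 374 and 229 CPM and *Cenpa*, the histone variant that marks centromeres, at 370 and 203 CPM (ratio 0.549, 0.521 to 0.579). *Spc25*, a subunit of the NDC80 complex that binds microtubules, was the least lowered of the 47, at 112 and 90.2 CPM (0.809, 0.742 to 0.882). Among the spindle genes, *Nusap1* stood at 292 and 173 CPM, *Tpx2*, which activates Aurora A on the spindle, at 187 and 106 CPM, and *Ckap2* at 145 and 84.8 CPM. These spindle genes sat near the median of their group of 12 (log2 -0.75).

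The cytokinesis genes differed most. *Anln*, the scaffold anillin of the contractile ring, stood at 23.0 CPM in control and 10.8 CPM in Smo-cKO (ratio 0.469, 0.373 to 0.588), and *Ect2*, which activates RhoA at the division plane, at 45.5 and 22.5 CPM (0.496, 0.423 to 0.579). These were the 2 members past 2-fold. *Kif23*, a motor of the central spindle, followed at 46.7 and 25.7 CPM and *Prc1*, which bundles midzone microtubules, at 266 and 161 CPM. The median log2 ratio of the 4 was -0.94, the lowest of the 8 role groups.

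Chromosome structure genes differed least, with a median log2 ratio of -0.48. *Hmgb2*, a DNA-bending chromatin protein and the most abundant member, stood at 3628 and 2601 CPM (ratio 0.717, 0.706 to 0.728). *Top2a*, the topoisomerase that untangles sister chromatids, stood at 345 and 239 CPM, the condensin subunit *Smc4* at 190 and 144 CPM, and *Mki67*, which coats mitotic chromosomes, at 119 and 85.2 CPM. Among the APC/C and anaphase genes, *Ube2c*, its ubiquitin-conjugating enzyme, stood at 433 and 288 CPM, *Pttg1* (securin) at 380 and 239 CPM, and the activator *Cdc20* at 136 and 96.6 CPM. The ratios of these last 3 lay between 0.630 and 0.710.

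**Figure D1:**
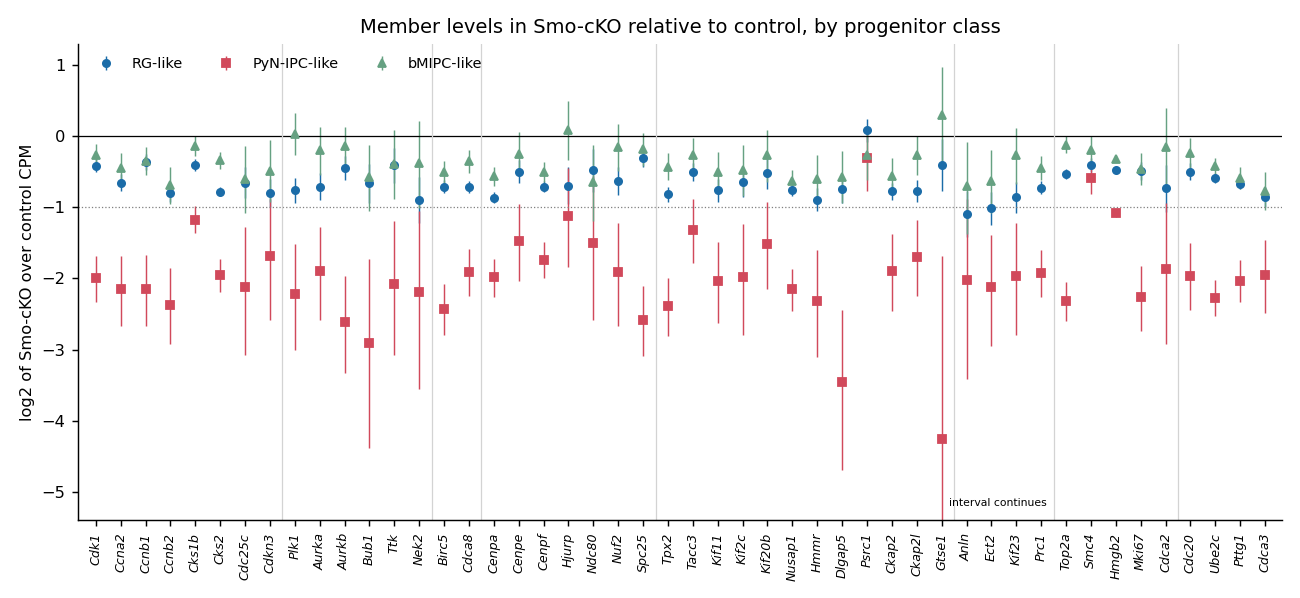
Log2 of the Smo-cKO level over the control level (CPM of summed UMIs) for each of the 48 members, grouped by role along the horizontal axis, in RG-like, PyN-IPC-like and bMIPC-like cells. Points are ratios and bars their exact 95% counting intervals. PyN-IPC-like points sit lowest, with a median of -1.99, and *Psrc1* is the point above 0 in RG-like cells.

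Genes outside the list followed in smaller measure. Of 61 further mitotic genes 60 were lower in Smo-cKO RG-like cells (median log2 ratio -0.48), led, among those with at least 50 UMIs, by *Sapcd2* (-1.30), *Kif14* (-1.08) and *Aspm* (-0.93). The 3 at the other end were *Mastl* (0.12), *Mybl2* (-0.05) and *Cenpi* (-0.07), whose intervals all include a ratio of 1. Of 46 S phase genes 45 were lower, with a median of -0.25. *Brip1* (-0.85), *E2f8* (-0.62) and *Dtl* (-0.61) were the lowest and *Chaf1b* (0.08), *Fen1* (-0.02) and *Pola1* (-0.02) the highest. The member UMIs per S phase UMI were 4.14 in control and 3.29 in Smo-cKO RG-like cells.

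The difference was larger in PyN-IPC-like cells. All 48 members were lower in Smo-cKO, beside 5388 of 12156 genes, and 46 were at least 2-fold lower, beside 5.07% of all genes. The median log2 ratio of the members was -1.99 (all genes 0.05). *Cdk1* stood at 97.5 CPM in control and 24.4 CPM in Smo-cKO (ratio 0.251, 0.20 to 0.312), *Top2a* at 160 and 32.0 CPM, *Mki67* at 58.2 and 12.1 CPM and *Ube2c* at 183 and 37.8 CPM. The lowest ratios were those of *Gtse1* (5.04 and 0.263 CPM, log2 -4.26, with a single UMI in Smo-cKO), *Dlgap5* (-3.45) and *Bub1* (-2.91), genes of G2 checkpoint recovery, spindle assembly and the spindle checkpoint. The 2 members short of 2-fold were *Smc4* (90.1 and 60.1 CPM) and *Psrc1* (19.9 and 16.02 CPM, ratio 0.806, 0.586 to 1.10). *Hmgb2* stood at 1719 and 817 CPM. For every member the ratio was lower here than in RG-like cells (48 of 48, median difference -1.28 in log2). This comparison between classes was not made for all genes. The further mitotic genes had a median of -1.79 with 56 of 61 at least 2-fold lower, and the S phase genes -1.08 with 26 of 46. Of the further mitotic genes with at least 50 UMIs, *Ska1* (-3.89), *Kif4* (-3.21) and *Kif20a* (-3.17) were the lowest and *Cenpt* (-0.04), *G2e3* (-0.40) and *Cenpq* (-0.49) the highest.

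In bMIPC-like cells the members were at their highest and differed least. They summed to 13059 CPM in control and 10165 CPM in Smo-cKO. Of the 48, 45 were lower, beside 5880 of 11153 genes. By 2-fold 0 were lower, beside 4.99% of all genes, and the median log2 ratio was -0.38. The intervals of 31 members lay below a ratio of 1, a count that was not made for all genes. Under other settings up to 4 members were past 2-fold, without a share of all genes counted beside them. *Top2a* stood at 510 and 470 CPM (ratio 0.922, 0.847 to 1.00), *Ube2c* at 719 and 539 CPM, and *Cdk1* at 352 and 293 CPM. *Cdca3*, which promotes entry into mitosis through the APC/C and SCF pathways, had the lowest ratio (155 and 91.1 CPM, log2 -0.76). The 3 members not lower were *Gtse1* (0.30), *Hjurp* (0.09), the chaperone of *Cenpa*, and *Plk1* (84.4 and 86.3 CPM, 0.03), and the interval of each includes 1. For 46 of 48 members the ratio was higher here than in RG-like cells, a count that was not made for all genes. The further mitotic genes had a median of -0.28 (*Ccnf* -0.89 the lowest, *Kntc1* 0.24 the highest) and the S phase genes -0.16 (*Cdc6* -1.08, *Fen1* 0.62).

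Differences of the same direction appeared outside the progenitors of the cortex, and these values stand beside the results above. In microglia-like cells, whose lineage does not come from cortical radial glia, the members had a median log2 ratio of -1.02, and 24 of 48 were at least 2-fold lower beside 8.94% of all genes. Their G2/M share, the share of cells with at least 5 members detected, was 56.0% of 100 control cells and 22.5% of 178 Smo-cKO cells. In RG-like cells 41 of 48 members nevertheless had a higher ratio than in microglia-like cells, a count not made for all genes. In PyN-like cells, the pyramidal neurons, the median was -2.02 with 40 members at least 2-fold lower (3.68% of all genes). Few cells carried that value: 66 of 2426 control PyN-like cells, those with at least 8 further mitotic genes, held 6643 of the 10020 member UMIs of the class, and 6 of 2178 Smo-cKO cells held 821 of 4313. In the PyN-like cells outside S phase and mitosis the members summed to 408 CPM in control and 393 CPM in Smo-cKO. In newborn PyN-like cells the median was -1.12 with 32 members past 2-fold (2.9%). In inhibitory-like cells 44 members could be measured, with a median of -1.69 and 34 past 2-fold (6.44%). In vascular-like cells the summed levels went the other way, with 15 of 23 measured members at least 2-fold higher (6.33%), but 2 of the 37 Smo-cKO cells held 451 of the 657 member UMIs. Counted in cells, the vascular-like G2/M share was 27.0% in control against 10.8% in Smo-cKO (-16.2 points, -29.9 to 0.605), and 7.78% and 10.8% after thinning every cell to 2000 UMIs. The part that a difference between the whole libraries had in these values was not tested.

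The same difference counted in cells depended on depth. Cells are said to be in G2/M, here and below, by the number of members detected. Members were also detected in S phase cells, so the call can take in such cells and is not a measured phase. With 5 members needed, 49.2% of control RG-like cells (46.9 to 51.4) were called G2/M and in Smo-cKO 42.5% (40.0 to 45.1). The difference was -6.63 percentage points (-9.99 to -3.26). When every cell was thinned to 2000 UMIs the shares were 40.0% and 27.5%. In PyN-IPC-like cells the share was 21.3% (19.2 to 23.5) in control and 11.5% (9.09 to 14.3) in Smo-cKO, and 15.4% and 3.41% after thinning. In bMIPC-like cells it was 79.3% (75.5 to 82.7) and 76.4% (68.6 to 83.1), a difference of -2.91 points whose interval (-11.2 to 4.32) includes 0, and 65.7% and 55.6% after thinning. Without the 5% of cells of each library with the most UMIs the bMIPC-like difference was -10.5 points (-21.4 to -0.686), an interval that does not include 0. That cut was set over the whole library, whose median was 4033.5 UMIs in control and 4836 in Smo-cKO. The bMIPC-like medians were 6239 and 11015 UMIs, so the class could lose more than 5% of its cells, and unequally by genotype. With 3 members needed the RG-like and PyN-IPC-like differences turned to 2.31 (-0.886 to 5.48) and 0.944 points (-3.57 to 5.55), at unequal depths. With 8 needed they were -9.75 and -10.9 points.

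**Figure D2:**
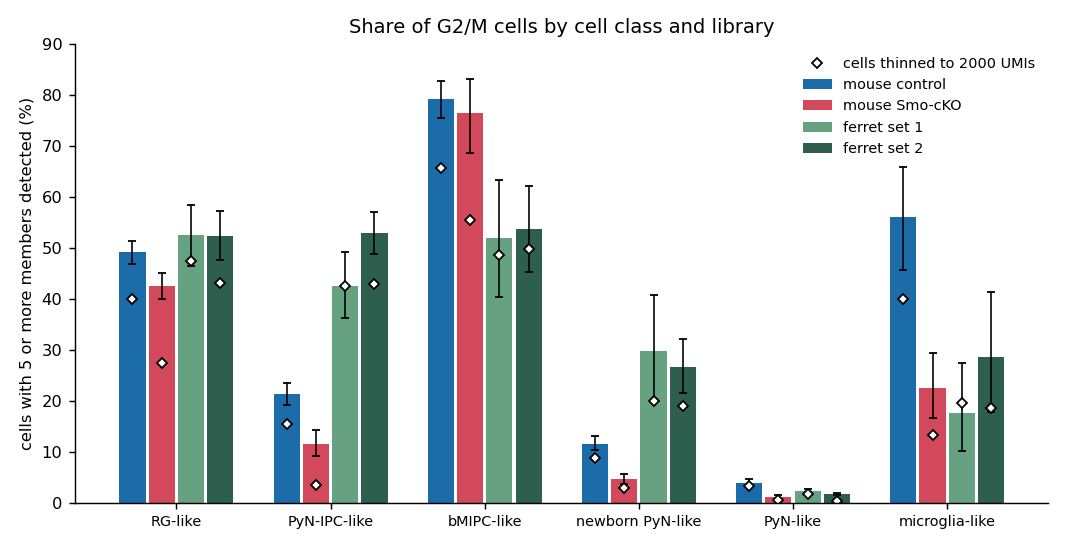
Share of cells with 5 or more members detected, in percent, by cell class, for mouse control, mouse Smo-cKO and the ferret barcode sets. Bars are shares of all cells of the class, error bars exact 95% binomial intervals, and open diamonds the share after thinning each cell to 2000 UMIs. Mouse bMIPC-like cells stand highest (79.3% and 76.4%), and the ferret progenitor classes lie between 42.6% and 53.8%.

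The number of members per cell separates the classes further. In control RG-like cells 303 cells (15.3%) held 31 or more of the 48 members and in Smo-cKO 171 cells (11.8%). In PyN-IPC-like cells 63 (4.27%) and 6 (0.987%) did, and in bMIPC-like cells 132 (25.8%) and 41 (28.5%). The Smo-cKO PyN-IPC-like cells were thus concentrated at 1 to 4 members (83.7%, against 69.3% in control).

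**Figure D3:**
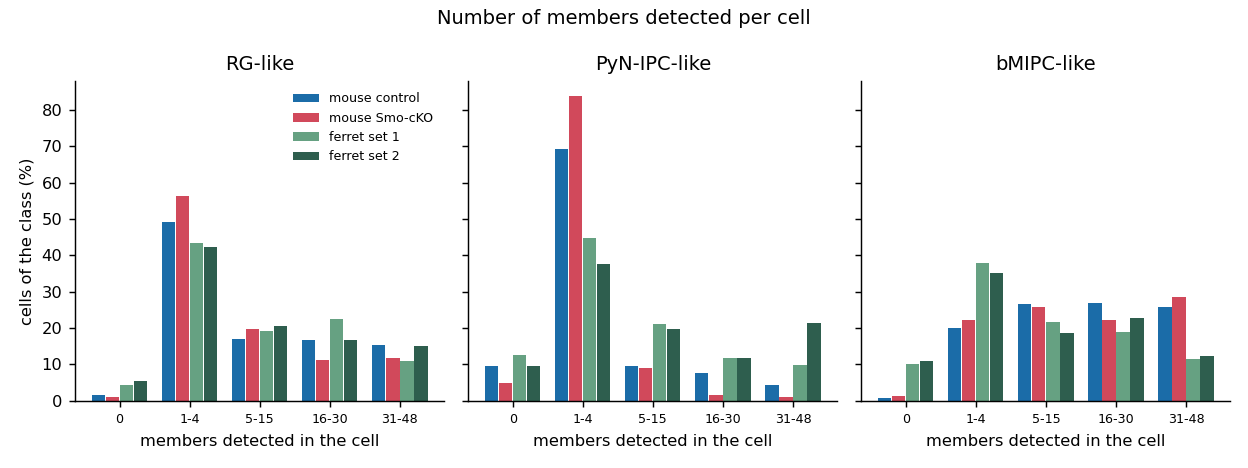
Number of members detected per cell, in 5 ranges along the horizontal axis, against the share of the class's cells in percent, for RG-like, PyN-IPC-like and bMIPC-like cells, with a bar for each mouse library and ferret set. In PyN-IPC-like cells of Smo-cKO 83.7% of cells fall in the range of 1 to 4 members.

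PyN-IPC-like cells still carrying at least 5 RG markers, the least advanced of the class by that measure, were the more often in G2/M. Their share was 41.3% of 283 control cells and 19.7% of 218 Smo-cKO cells (28.9% and 4.75% after thinning), and in cells with fewer RG markers it was 16.5% of 1193 and 6.92% of 390 (12.2% and 2.65%). Smo-cKO was lower on either side of this split. Cells with *Neurog2*, the proneural factor of the lineage, had shares of 22.5% and 12.7%, and cells with *Eomes* but no *Neurog2* 17.1% and 3.70%. In bMIPC-like cells the shares were 82.2% and 79.0% with 5 or more RG markers and 72.4% and 64.0% with fewer.

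To ask whether members differed among cells that were dividing, cells were called dividing by genes that are not members, as those with at least 8 of the further mitotic genes. This threshold was chosen after the values were seen. Deeper cells pass such a call more easily, and at 8 genes it was not repeated on thinned cells. How far the greater depth of Smo-cKO cells shaped the levels within dividing cells was therefore not tested. By this threshold 36.1% of control and 27.0% of Smo-cKO RG-like cells were dividing, 14.9% and 4.28% of PyN-IPC-like cells, and 67.2% and 61.8% of bMIPC-like cells. Within dividing RG-like cells (714 and 391) all 48 members were still lower in Smo-cKO, beside 6411 of 11784 genes, and none by 2-fold (4.12% of all genes). The median log2 ratio of the members was -0.35, while the S phase list stood at 0.07. Dividing RG-like cells held a median of 29 members in either library. Their median member UMIs per cell were 112 in control and 140 in Smo-cKO, but their median total was 5626.5 and 9472 UMIs, so the members were a smaller part of a larger count (20808 and 16949 CPM). Within dividing bMIPC-like cells the median was -0.33, and within the 220 and 26 dividing PyN-IPC-like cells -0.69.

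That within-division difference followed how strictly division was called. Over all classes, dividing cells had a median log2 ratio of -0.67 with 3 further mitotic genes needed. At that setting 1 member was at least 2-fold lower, beside 2.45% of all genes. The median was -0.35 with 5 needed (none 2-fold lower, beside 3.33%) and -0.17 with 8 needed. With 8 needed 43 of 48 members were lower, beside 7204 of 13629 genes, and none by 2-fold (4.58%). With 3 genes needed the RG-like share called dividing was 56.4% in control and 55.4% in Smo-cKO, but the median number of members in those cells was 19 and 10. The looser call therefore took in Smo-cKO cells with fewer members.

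*Psrc1* was the member that stood apart. It encodes a microtubule-binding protein of the spindle, also called DDA3, and is known as a gene that p53 can induce. It lies on chromosome 3 from 108383839 to 108388231. In RG-like cells it stood at 54.7 CPM in control and 58.0 CPM in Smo-cKO (ratio 1.06, 0.944 to 1.19). Within dividing RG-like cells its ratio was 0.882 (0.768 to 1.01). In RG-like cells outside S phase and mitosis, those with fewer than 8 further mitotic and fewer than 10 S phase genes (1064 and 918 cells), it stood at 13.6 and 41.4 CPM, a ratio of 3.03 (2.30 to 4.06), and was detected in 5.45% and 16.2% of cells. Of the 44 members that could be measured in these cells 36 were lower in Smo-cKO, with 14 at least 2-fold lower (3.27% of all genes) and a median of -0.80. The only other member 2-fold higher (5.3% of all genes) was *Gtse1*, a p53-regulating G2 protein, on 3 and 9 UMIs.

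*Cdkn1a*, which encodes the CDK inhibitor p21 and is another textbook p53 target, is not a member, and *Psrc1* was split by it after its values were seen. Among Smo-cKO RG-like cells outside S phase and mitosis, *Psrc1* was detected in 47.2% (40.8 to 53.6) of the 246 cells with a *Cdkn1a* UMI and in 4.91% (3.40 to 6.83) of the 672 without. In control it was detected in 29.2% (12.6 to 51.1) of 24 cells with a *Cdkn1a* UMI and in 4.90% (3.67 to 6.40) of 1040 without. The share without *Cdkn1a* was thus nearly equal in the libraries, but at unequal depth, so it is not an equal level. These cells had a median of 4190 UMIs in control and 6500.5 in Smo-cKO. The libraries also differed in how many of these cells held a *Cdkn1a* UMI, a number that depends on depth as well. Within Smo-cKO the cells with and without *Cdkn1a* were of similar depth, with medians of 6333.5 and 6500.5 UMIs. Over all RG-like cells, 314 of Smo-cKO and 56 of control held a *Cdkn1a* UMI. In Smo-cKO 31.8% of these were in G2/M against 45.5% of the 1132 without (12.1% and 31.9% after thinning), and the members summed to 3105 and 7804 CPM. In control RG-like cells the shares were 46.4% with and 49.2% without a *Cdkn1a* UMI (31.8% and 40.2% after thinning). Their members summed to 6282.5 and 10294 CPM, lower in cells with *Cdkn1a* as in Smo-cKO. PyN-IPC-like cells went the other way, with 22.0% of 59 cells with a *Cdkn1a* UMI in G2/M against 10.4% of 549 without in Smo-cKO, and 64.3% of 28 against 20.4% of 1448 in control. After thinning these were 6.10% and 3.11% in Smo-cKO and 44.3% and 14.9% in control. Among RG-like cells without a *Cdkn1a* UMI the control cells held 10294 CPM, so the members remained lower in Smo-cKO among cells in which *Cdkn1a* was not detected.

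Members differed in how far their level in S phase cells lay below that in dividing cells. Progenitors of the 3 classes with at least 10 S phase genes and fewer than 8 further mitotic genes were taken as S phase cells (396 in control) and compared with dividing progenitors (1278). The limit on mitotic genes keeps cells with many mitotic transcripts out of the S phase group, so a lower level there is partly set by the definition, and every member had at least 1 UMI in these cells. *Cks1b* differed least, at 166 CPM in S phase and 476 CPM in dividing cells (2.87-fold, 2.58 to 3.20), followed by *Hmgb2* at 1417 and 6031 CPM (4.25-fold), *Hjurp* (4.59-fold) and *Smc4* (4.67-fold). *Cks2* stood at 44.3 and 895 CPM, 20.2-fold higher in dividing cells (16.6 to 24.9), so the paired sequences shown above belong to transcripts with different timing. *Cdk1* was 11.0-fold and *Top2a* 15.9-fold higher in dividing cells. *Ccnb1* was 60.9-fold higher (33.0 to 127), *Kif11*, the motor that separates the spindle poles, 76.6-fold, and *Plk1*, with 2 UMIs in S phase cells, 141-fold (39.0 to 1168). In ferret set 2 (108 S phase and 479 dividing cells) *CKS1B* was again the least different at 1.93-fold, *CKS2* was 7.58-fold higher and *CCNB1* 217-fold (38.8 to 8563).

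Among dividing cells, those in the lowest tertile of S phase UMIs were set against those in the highest, which places late members apart from early ones. In control *Cdc20* was 39.3 CPM in cells rich in S phase transcripts and 453 CPM in cells poor in them (11.5-fold, 9.46 to 14.2). *Cdkn3*, a phosphatase of CDKs, was 10.7-fold higher, *Cenpa* 9.61-fold and *Pttg1* 9.25-fold. *Aurkb* (0.989-fold, 0.845 to 1.16), *Ndc80* and *Top2a* (both 1.13-fold) were nearly level. The APC/C activator and its substrate securin were thus at the late end with the centromeric histone. In ferret set 2 *CDC20* (24.6-fold), *PTTG1* (20.2-fold), *PSRC1* (17.3-fold), *CCNB1* (16.6-fold) and *CENPA* (15.03-fold) were the highest.

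**Figure D4:**
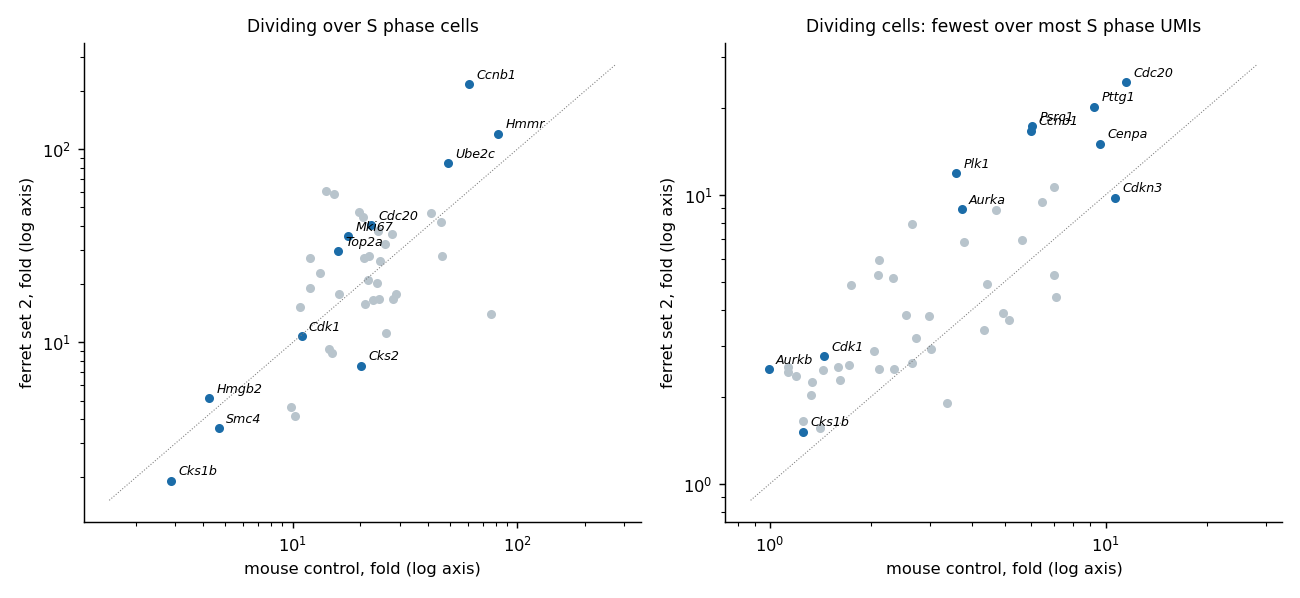
Left, level of each member in dividing cells relative to S phase cells, in mouse control (horizontal) and ferret set 2 (vertical), both as folds on log axes. Right, level in the dividing cells with the fewest S phase UMIs relative to those with the most, on the same axes. *Cks1b* lies at the low end on the left (2.87 and 1.93) and *Cdc20* at the high end on the right (11.5 and 24.6), and members with no UMI in 1 of the groups compared are not drawn.

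Pyramidal neurons outside division held the members at low levels, which differed between members. How much of these levels came from free RNA in the droplets was not tested. PyN-like cells (2351 in control and 2166 in Smo-cKO) held all members at 408 and 393 CPM, against 18640 and 15914 CPM in dividing progenitors. The median member stood at 0.848% and 0.843% of its dividing level. *Smc4* was highest, at 28.2 CPM in control neurons (8.64% of the dividing level, 7.51 to 9.90) and 8.97% in Smo-cKO, followed by *Cks1b* (6.99% and 6.65%), *Hjurp* (5.85% and 5.78%), *Hmgb2* (3.78% and 4.46%) and, in control, *Aurka* (2.73%). The percentages thus differed between members by far more than between the genotypes. In ferret neurons *CKS1B* was highest in either set (21.6% and 16.1%), then *PSRC1* (13.1% and 10.4%), with medians of 1.34% and 0.842%.

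**Figure D5:**
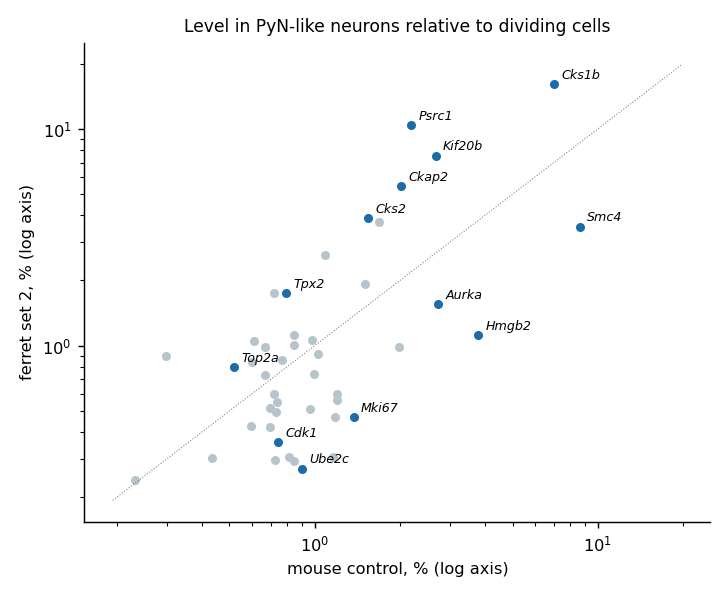
Level of each member in PyN-like neurons outside division as a percentage of its level in dividing progenitors, in mouse control (horizontal) and ferret set 2 (vertical), on log axes. *Cks1b* stands high in both (6.99% and 16.1%), and *Smc4* is highest in mouse (8.64%).

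In ferret at E39 the progenitor classes lay closer together in G2/M share than in control mouse. The share was 52.4% of 286 and 52.4% of 435 RG-like cells in sets 1 and 2, 42.6% of 237 and 52.9% of 599 PyN-IPC-like cells, and 51.9% of 79 and 53.8% of 145 bMIPC-like cells, against 2.38% and 1.69% in PyN-like neurons. The bMIPC-like share exceeded the RG-like share by 30.1 points in control mouse (25.8 to 34.1), and by -0.549 (-12.8 to 11.6) and 1.38 points (-7.97 to 10.6) in the ferret sets. Likewise the RG-like share exceeded the PyN-IPC-like share by 27.9 points in control mouse (24.8 to 30.9), by 9.83 points (1.23 to 18.2) in ferret set 1 and by -0.508 points (-6.65 to 5.63) in set 2. Mouse cells were sorted and ferret cells were not, and the stages differ, so the shares are set side by side only. The PyN-IPC-like sets differed by 10.3 points (2.79 to 17.6) at unequal depth and by 0.415 points after thinning to 2000 UMIs.

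Every one of the 47 ferret members was at least 2-fold higher in each progenitor class than in PyN-like neurons in each set. The backgrounds were 28% and 27.4% of all genes in RG-like cells, 25.1% and 19.7% in PyN-IPC-like cells and 37.2% and 33.1% in bMIPC-like cells. The median log2 ratio ran from 4.35 to 6.13. *CDK1* stood at 267 and 211 CPM in RG-like cells of sets 1 and 2 and at 7.47 and 1.78 CPM in neurons, *TOP2A* at 390 and 456 CPM and 12.7 and 9.87 CPM, and *MKI67* at 78.4 and 97.4 CPM and 3.27 and 1.10 CPM. In PyN-IPC-like cells *UBE2C* stood at 671 CPM in set 1 and 1118 CPM in set 2. There 44 of 47 members were higher in set 2 (median 0.69), beside 7679 of 12118 genes (median 0.17). By 2-fold 12 members were higher, beside 8.71% of all genes. In RG-like cells the sets had a median difference of 0.02.

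The order of the members by level in dividing progenitors was nearly the same in both mouse libraries (Spearman 0.994 over 47 members) and in both ferret sets (0.965), and less alike between control mouse and ferret (0.702 and 0.698). Of the 47 members 15 differed by at least 2-fold between control mouse and ferret set 1, and 15 between control mouse and set 2. How many of all genes differed this far between the species was not counted. With the sets summed, 4 members were at least 2-fold lower in ferret and 12 higher. The lower ones were *CENPA* (-3.16 in log2, ferret minus mouse), *CDCA8* (-2.31), *PSRC1* (-1.26) and *HMGB2* (-1.08). The higher ones were led by *GTSE1* (3.50) and *NDC80* (2.08), and the others, *AURKB*, *TTK*, *CDCA2*, *DLGAP5*, *ECT2*, *NUF2*, *BUB1*, *CKS2*, *CDCA3* and *CDKN3*, lay between 1.01 and 1.43. The tables were counted on different annotations, so levels of the 2 species are set side by side and not tested.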

How the data were processed

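Single-cell libraries of E18 mouse cortex (control and Smo-cKO) and E39 ferret cortex were analysed from 2 deposited tables of raw UMI counts per gene and cell. The counts were made by the authors with Cell Ranger, and the submitters' processing notes also name StringTie, Seurat 3 and the mouse build mm10. The counts had not been normalized. Cells with 750 to 5000 genes and under 10% mitochondrial UMIs were kept, after the study's methods. No doublet caller was run, and cells with markers of several lineages were left unassigned.

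The members, marker lists, further mitotic and S phase lists were chosen with earlier results of these data known. UMIs were summed over the cells of a class and library and given as CPM with exact Poisson intervals. Ratios have exact conditional binomial intervals, shares exact (Clopper-Pearson) intervals and differences of shares Newcombe intervals, all at 95%. Medians and counts past 2-fold cover genes with at least 10 UMIs in the pair compared, with a count of 0 set to 3 for a bound. With 1 library per genotype there was no test. Thinning drew 2000 UMIs per cell, averaged over 10 draws, and left out shallower cells (42 of 1446 Smo-cKO RG-like cells and 0 control ones).

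Values are given for every member group by level, by the 3 largest and 3 smallest ratios in RG-like cells, by the 5 highest relative neuron levels, and for *Mki67*, *Top2a*, *Cdk1*, *Ccnb1*, *Plk1*, *Aurka*, *Cdc20* and *Hmgb2*. The thresholds of 8 further mitotic genes for dividing cells and of 10 S phase genes were added after values were seen. *Cdkn1a* and the genes named for bMIPC-like and PyN-IPC-like extremes were added after their values were seen. No member overlaps another gene of the table on its own strand, and 8 members overlap one on the opposite strand. Coordinates and coding sequences are from GENCODE on GRCm38. Promoter motifs were not analysed here, and 1 class marker and the S phase genes with the most extreme ratios in PyN-IPC-like cells are not reported by name. The summing and interval code was tested on simulated data. Analyses ran in Python 3.11.15 with scipy 1.17.1 and numpy 2.4.6 (figures: matplotlib 3.10.9; tables: pandas 2.3.3).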

Additional observations from a re-analysis of the deposited data

Results flagged for a closer look

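In vascular-like cells the summed member levels went the other way from the progenitors. Of the 23 members that could be measured in 63 control and 37 Smo-cKO cells, 21 were higher in Smo-cKO, beside 3420 of 7577 genes. Of these members 15 were at least 2-fold higher (6.33% of all genes), and the median log2 ratio was 1.60. The counts were small, as for *Top2a* with 10 and 30 UMIs (22.3 and 92.5 CPM) and *Mki67* with 6 and 17 UMIs, and 8 or more members were detected in only 5 and 3 cells. Of the 657 member UMIs in Smo-cKO 2 cells held 451, and the G2/M share was 27.0% in control and 10.8% in Smo-cKO (7.78% and 10.8% after thinning). The difference between this class and the others was not tested.

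*Psrc1* in PyN-IPC-like cells outside S phase and mitosis stood at 4.47 CPM in control and 13.1 CPM in Smo-cKO, a ratio of 2.93 (1.70 to 5.19), while within dividing cells of the class its ratio was 0.507 (0.237 to 0.967). Outside division it was detected in 31.8% of 44 Smo-cKO cells of the class with a *Cdkn1a* UMI and in 2.92% of 514 without. *Hmgb2* outside division stood at 526 and 578 CPM in these cells, a ratio of 1.10 (1.03 to 1.17), and within dividing cells its ratio was 0.692 (0.648 to 0.738). These opposite directions were not tested.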

How the results depend on the processing

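Each genotype is 1 library and the ferret sets carry no labels, so depth, embryo and genotype cannot be told apart and no replicate could be left out. No paired analysis was possible because each mouse group has 1 sample and no result comes from a test. The planned search of promoters for motifs was not run, since no promoter sequence was used here. Of 140 alternatives to the reported values 96 moved them by less than the set limit, 42 moved them further and 2 reversed them, and another centring or UMI minimum was among the 96. The cause of the changes below was not tested. The share of all genes past 2-fold was not counted with thinning, other lineage thresholds, every deposited cell or the deepest cells left out.

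In RG-like cells the members at least 2-fold lower went from 2 to 10 with cells thinned to 2000 UMIs. They were 17 without the 5% of cells of each library with the most UMIs (median -0.94). The deepest cells were cut over each whole library and not within a class, so a class could lose more or less than 5%. The count was 7 with classes set on the thinned counts and 14 outside S phase and mitosis. In PyN-IPC-like cells the median was -1.44 with classes set on the thinned counts. In bMIPC-like cells the count went from 0 to 3 with 1 UMI more for every lineage threshold, 2 with thinning, 1 without the deepest cells and 4 with classes on the thinned counts. Within dividing cells the median of -0.67 became -0.27 with thinning, -0.90 without the deepest cells, -0.35 with 5 and -0.17 with 8 further mitotic genes. The count of 1 became 15 without the deepest cells and 0 with every deposited cell, with thinning, and with 5 or 8 genes. The differences in G2/M share that reversed were those with 3 members needed, 2.31 points in RG-like and 0.944 in PyN-IPC-like cells. With thinning the RG-like difference was -12.5 points, and without the deepest cells the bMIPC-like difference went from -2.91 to -10.5 points.

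Ferret shares moved with the call. With 3 members needed they were 70.6% and 73.1% in RG-like cells of sets 1 and 2, 57.4% and 64.6% in PyN-IPC-like cells and 68.4% and 64.8% in bMIPC-like cells. With 8 needed they were 44.8% and 42.3% in RG-like and 33.8% and 43.4% in PyN-IPC-like cells. Thinning gave 43.2% in RG-like and 43.0% in PyN-IPC-like cells of set 2, and 1 UMI more for the lineage thresholds 50% and 58.3% in PyN-IPC-like cells. The median log2 ratio over neurons, with the sets summed, was 5.25 in RG-like cells (4.92 with thinning, 4.63 in set 1, 5.73 in set 2), 5.50 in PyN-IPC-like cells (5.14, 4.35 and 6.13) and 5.17 in bMIPC-like cells (4.70 in set 1 and 5.57 in set 2).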

Other observations

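Ferret bMIPC-like cells differed within their class. Those with 5 or more RG markers were in G2/M in 61.9% of 21 cells of set 1 and 77.8% of 54 cells of set 2, and those with fewer in 48.3% of 58 and 39.6% of 91. The former were deeper, with medians of 4762 and 4726.5 UMIs against 2832.5 and 3447. After thinning the bMIPC-like shares were 54.5% and 74.2% against 46.2% and 35.0%. In PyN-IPC-like cells the shares were 63.2% of 19 and 76.3% of 59 with 5 or more RG markers and 40.8% of 218 and 50.4% of 540 with fewer. Their medians were 5129 and 6654 UMIs against 2649 and 3882.5. After thinning the shares were 52.1% and 54.6% against 41.5% and 41.7%. Ferret cells with *NEUROG2* had shares of 42.5% and 58.9% (43.3% and 47.8% after thinning). Cells with *EOMES* but no *NEUROG2* had 42.9% and 38.2% (40.0% and 30.9%). The members per S phase UMI were 4.08 and 3.26 in ferret RG-like cells, 3.69 and 4.84 in PyN-IPC-like cells and 4.75 and 2.91 in bMIPC-like cells, so the sets had no common order.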
